A study of Mus musculus with 36 samples.

Results

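The comparison described here is that of *Tug1* KD and control myotubes 3 h after electrical pulse stimulation (EPS 3h). It used 12 of the 36 libraries of the study, 6 of *Tug1* KD and 6 of control, chosen by their sample titles. The cells were C2C12, a mouse myoblast line that fuses into myotubes when serum is reduced, here differentiated for 4 days. On day 3 both groups were transfected with an antisense locked nucleic acid (LNA), directed against *Tug1* in the KD group and without a target in the control group. One LNA sequence was used against *Tug1* in these libraries, so within them an action of that LNA on other RNAs cannot be told apart from the loss of *Tug1*. A day later both groups were stimulated for 3 h in trains of pulses and left to recover for 3 h before harvest, so that the EPS 3h control cells had also been transfected and stimulated. The other 24 libraries were 6 control and 6 *Tug1* KD at Rest, with electrodes in the medium but no pulses, and 6 and 6 harvested directly after stimulation (EPS 0h). The line was grown alone, without nerve, vessel or immune cells.

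*Tug1* is a long noncoding RNA that is widely expressed and has been linked to chromatin and to the control of mitochondrial genes. In muscle cells, contraction begins when a voltage-sensing calcium channel in the membrane opens the ryanodine receptor of the sarcoplasmic reticulum, and calcium then reaches the sarcomere and, through the uniporter, the mitochondria. Immediate early genes and stress genes are induced within the first hours after contraction, and genes of metabolism and remodelling follow, which is why the hours of recovery are of interest in a knockdown.

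Counts on genes ranged from 17451381 to 22812123 in the EPS 3h control libraries and from 17734154 to 20651294 in the EPS 3h *Tug1* KD libraries. No 2 libraries of a group were duplicates (lowest chi-square of counts per degree of freedom, 5.72). The myotube label was borne out by 7 markers (*Myog*, *Mymk*, *Ckm*, *Acta1*, *Myh3*, *Tnnt3* and *Des*), whose summed level was 13058.6 to 17708.2 RPM (reads scaled to the size of the library) in control and 11396.3 to 16210.4 RPM in *Tug1* KD libraries, with 0 of 7 past the threshold. Markers of unfused myoblasts summed to between 354 and 567 RPM over both groups, with 0 of 7 past the threshold. Dividing cell markers summed to between 103 and 162 RPM, and 1 of 5 was lower. Markers of adipocytes, bone or cartilage cells, endothelial cells and leukocytes summed to at most 14.1 RPM in any library. In bulk RNA, fewer cells of a type and less RNA per cell cannot be told apart.

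*Tug1* itself (chr11:3589785-3599673 in GRCm39, minus strand) was lower in the *Tug1* KD libraries, but the groups overlapped. Its level, in RPM scaled by TMM as are all levels below, was 101, 107, 54.6, 72.5, 71.8 and 81.5 in control replicates 1 to 6 and 54.0, 84.6, 46.4, 67.9, 48.9 and 40.0 in *Tug1* KD replicates 1 to 6. The *Tug1* KD library was below the control library of the same number in 6 of 6 cases and below every control library in 4 of 6. The mean was 81.3 ± 19.5 RPM for control and 57.0 ± 16.5 RPM for *Tug1* KD libraries (SD, n = 6 each), a log2FC of -0.51 (SE 0.17, FDR 0.0414). With the replicate number as a block and the EPS 3h libraries alone, the FDR was 0.000848. The unblocked call was lost without replicate 1 (FDR 0.146), 3 (0.0585), 4 (0.0521), 5 (0.127) or 6 (0.110), and with the EPS 3h libraries alone (0.133). The log2FC stayed between -0.60 and -0.43 in all of these. The log2FC was -0.83 at Rest and -0.57 at EPS 0h, and its difference between EPS 3h and Rest was 0.32 with an FDR of 1.00. Set beside these, *Tug1* at Rest was at 38.6, 47.8 and 58.3 RPM (lowest, median, highest) in control and 24.0, 25.4 and 33.3 RPM in *Tug1* KD libraries. The EPS 3h *Tug1* KD libraries thus lay above all 6 resting *Tug1* KD libraries and overlapped the resting control ones. Of its nearest tested neighbours, *Smtn* (smoothelin, 99.2 kb away) was higher, with a log2FC of 0.40 (FDR 0.0153, and 0.0621 at most when alternatives were tried, the call being lost without replicate 5). *Osbp2* (an oxysterol-binding protein, 33.8 kb away) had a log2FC of 0.27 and an FDR of 0.393.

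**Figure D1:**
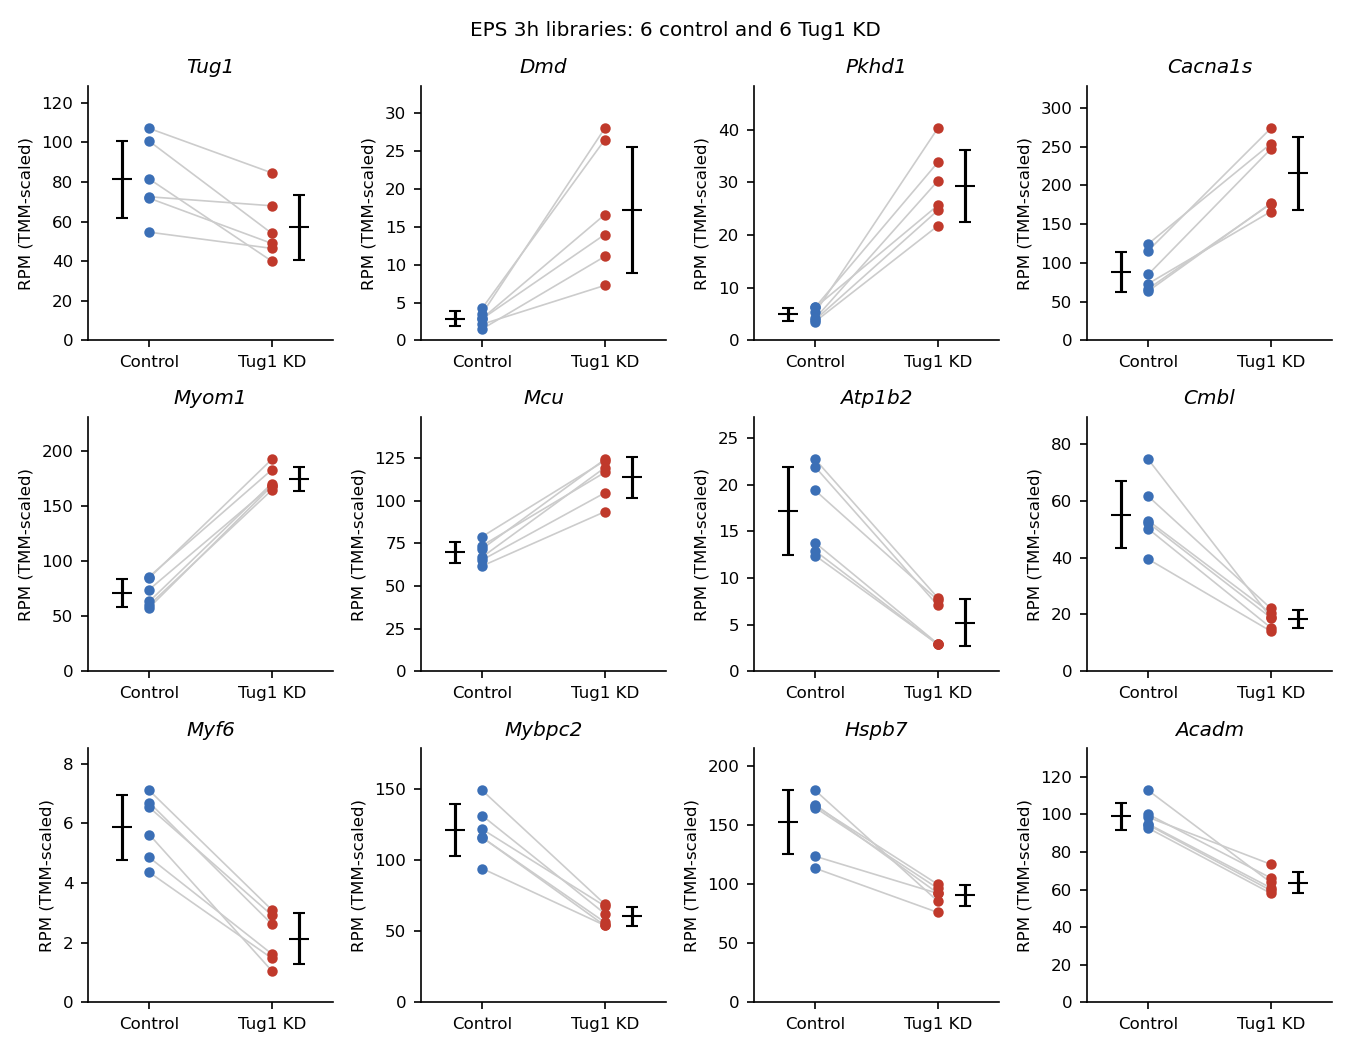
Level in RPM (scaled by TMM, linear axis from 0) of 12 genes in the 6 control (blue) and 6 *Tug1* KD (red) libraries of EPS 3h. Grey lines join libraries with the same replicate number, and black bars give the mean and SD. The groups overlap for *Tug1* and are separate for the other 11 genes.

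Of 13995 genes tested, 893 (6.38%) were higher and 715 (5.11%) were lower in *Tug1* KD myotubes at EPS 3h at an FDR under 0.05 with edgeR, so that 11.5% were called in all. Most of these differences were small. The median log2FC was 0.50 for the higher and -0.46 for the lower genes, against -0.01 for all genes, and 72 genes had a log2FC above 1 and 64 one below -1. Of the higher genes, 828 were higher in the *Tug1* KD library of all 6 replicate numbers, and of the lower genes, 613 were lower in all 6. The libraries of the groups did not overlap for 355 of the higher and 252 of the lower genes, where 2.68% and 1.94% of all genes tested were separated in that way. Deviations of libraries with the same replicate number were positively correlated at EPS 3h, but only for numbers 3 and 5 was each library the other's closest match. Whether the numbers are true pairs was not tested, so counts with the block depend on that choice. With the number as a block, 1615 genes were higher (11.5% of genes tested) and 1296 lower (9.26%) for the EPS 3h libraries alone. These included 873 of the 893 and 687 of the 715 genes. The 12 libraries without a block gave 503 higher and 328 lower. Leaving out both libraries of a number gave 556 to 803 higher and 422 to 611 lower genes, the lowest counts being those without replicate 2 (556 and 459) and without replicate 4 (568 and 422). The counts of list members below stand against these shares of all genes, 6.38% higher and 5.11% lower, or 11.5% and 9.26% with the block, by which the fit of the EPS 3h libraries alone is meant unless stated. A list whose counts are near them is not set apart from other genes.

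**Figure D2:**
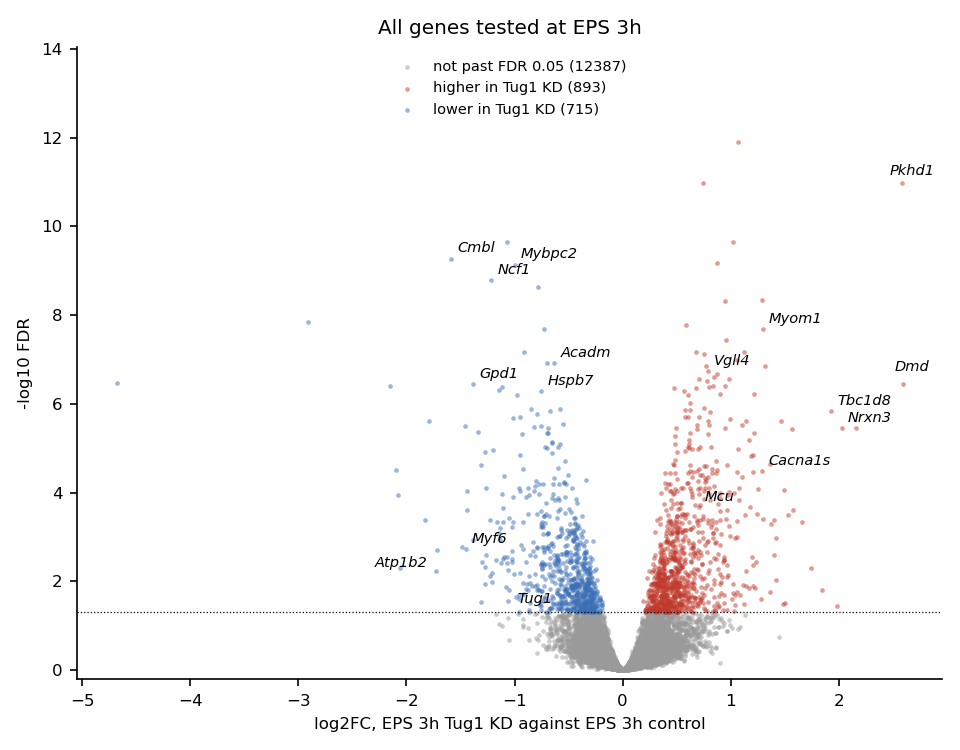
Each point is 1 of 13995 genes tested, with the log2FC of *Tug1* KD against control at EPS 3h on the horizontal axis and -log10 of the FDR on the vertical axis. The dotted line is an FDR of 0.05, red points are the 893 higher and blue points the 715 lower genes, and *Tug1* lies just above the line.

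Among genes with separate groups and a mean of 5 RPM or more on the higher side, the largest rises included several very long genes, one of them the dystrophin gene. *Dmd* (chrX:81992474-84249747), whose product links the cytoskeleton of the muscle fibre to its membrane, had a lowest, median and highest level of 1.52, 2.88 and 4.26 RPM in control and 7.26, 15.3 and 28.0 RPM in *Tug1* KD libraries. The groups were separate, and *Dmd* was 6.02-fold higher (log2FC 2.59, SE 0.31, FDR 3.56e-07). *Pkhd1* (chr1:20128003-20688288), which encodes the ciliary membrane protein fibrocystin, went from 3.59, 4.75 and 6.31 RPM in control to 21.7, 27.9 and 40.3 RPM, a 5.98-fold rise (log2FC 2.58, SE 0.19, FDR 1.05e-11). *Nrxn3* (chr12:88689646-90301709), a neurexin known from synapses, went from 2.99, 4.48 and 8.55 RPM to 13.4, 20.1 and 34.6 RPM (log2FC 2.03, FDR 3.53e-06). These 3 genes span 2257, 560 and 1612 kb of the genome. *Tbc1d8* (chr1:39410573-39517881), of a family that acts on Rab GTPases, went from a median of 11.0 to 38.5 RPM (log2FC 1.92, FDR 1.46e-06). *Dio2* (chr12:90691322-90705819), the deiodinase that activates thyroid hormone within cells, went from 13.5, 15.7 and 26.5 RPM to 27.5, 55.2 and 88.9 RPM (log2FC 1.65, FDR 0.000448). Its lowest *Tug1* KD library lay just above the highest control library. The synaptic scaffold gene *Dlg2* (chr7:90125880-92098455, log2FC 1.58) and the long noncoding RNA *Gm38403* (chr10:118756286-118763048, log2FC 1.57) were also higher with separate groups. Each of these genes passed the threshold under each of the 18 alternatives.

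By the same rule, the largest falls were in genes of 1.95 to 24.8 kb, among them a pump subunit, a myogenic factor and an enzyme of glycerol metabolism. *Atp1b2* (chr11:69487651-69496851), a beta subunit of the sodium-potassium pump, had levels of 12.4, 16.6 and 22.7 RPM in control and 2.89, 5.02 and 7.88 RPM in *Tug1* KD libraries, a log2FC of -1.71 (SE 0.38, FDR 0.00200). *Cmbl* (chr15:31565491-31590268), a cytosolic hydrolase, went from 39.4, 52.6 and 74.5 RPM to 14.1, 18.9 and 22.2 RPM (log2FC -1.59, SE 0.14, FDR 5.33e-10). The 6 *Tug1* KD libraries of each of these genes lay below all 6 control libraries. *Myf6* (chr10:107328712-107330656), the myogenic factor also called MRF4 that is typical of mature fibres, went from 4.36, 6.08 and 7.10 RPM to 1.06, 2.13 and 3.10 RPM (log2FC -1.45, SE 0.32, FDR 0.00187). *Gpd1* (chr15:99615396-99622893), the cytosolic glycerol-3-phosphate dehydrogenase, fell by 1.38 on the log2 scale (FDR 3.56e-07), from a median of 7.51 to 2.78 RPM. The NADPH oxidase subunit *Ncf1* (chr5:134248907-134258479) fell by 1.22, and the lipid antigen-presenting gene *Cd1d1* (chr3:86903132-86906770) by 1.15. Both are also leukocyte genes. The 5 leukocyte markers together were at 3.52 to 5.70 RPM in control and 2.40 to 3.82 RPM in *Tug1* KD libraries, 1 of them (*Cd68*) was tested and lower (log2FC -0.72, FDR 0.00901), and *Adgre1* had at most 3 counts in every control library. Their part in these falls was not tested. The orphan receptor gene *Gpr157* (chr4:150171822-150190457, log2FC -1.11) and *Depp1* (chr6:116627570-116629755, log2FC -1.10), a gene known as a FOXO target, completed the list. All 8 falls passed the threshold under each of the 18 alternatives.

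Gene span, which took no part in the test, differed between the higher and the lower genes. The median annotated span, from the first to the last base of a gene, was 91.9 kb for the higher genes, 16.5 kb for the lower genes and 24.4 kb for all tested. Of genes under 10 kb, 1.58% (54 of 3408) were higher and 6.63% were lower. Of genes from 100 to 300 kb, 21.3% (323 of 1514) were higher and 0.462% lower. Of the 308 genes over 300 kb, 33.8% were higher and 3 were lower. The median log2FC rose from -0.08 under 10 kb, through -0.07 and 0.03, to 0.21 from 100 to 300 kb and 0.37 over 300 kb. Within each replicate number, the median log2 difference between the *Tug1* KD and the control library was positive for genes over 300 kb (0.20 to 0.51), and for genes under 10 kb it was negative in 5 of 6 numbers (-0.14 to 0.04). The 1 exception was replicate 6. Spearman's rho between span and log2FC across 13946 genes was 0.335, as a description, since genes are not independent replicates and the points share all 12 libraries. For single replicate numbers it was 0.028 (replicate 6) to 0.316 (replicate 2).

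The pattern was present among genes of like exonic length and like level. When genes were split into 3 equal groups by exonic length, in the longest group, 3.11% of genes spanning under 30 kb, 7.90% of those from 30 to 100 kb and 25.1% of those of 100 kb or more were higher. In the shortest group these shares were 1.53%, 4.70% and 7.89%. Among genes of 10 to 100 RPM in control, 4.67% of those under 100 kb and 27.8% of those of 100 kb or more were higher, and among genes under 10 RPM 2.66% and 12.9%. The same bins showed the pattern in the other states, where no library is shared. Genes over 300 kb were higher in 26.9% of cases at Rest and 41.6% at EPS 0h, and had median log2FCs of 0.27 and 0.39, while genes under 10 kb were higher in 1.17% and 1.82%. Stimulated cells also differed from resting cells by span within 1 LNA: the median log2FC of EPS 3h against Rest was -0.13 under 10 kb and 0.40 over 300 kb in control, and -0.14 and 0.46 in *Tug1* KD myotubes. These 2 contrasts share the EPS 3h libraries with the comparison described here. Of 12581 genes labelled protein-coding, 847 (6.73%) were higher and 693 (5.51%) lower, near the shares of all genes. *Tug1* carries that label in the deposited data, so it is counted among the 693. Of 824 genes labelled long noncoding RNA, 32 (3.88%) were higher and 17 (2.06%) lower.

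**Figure D3:**
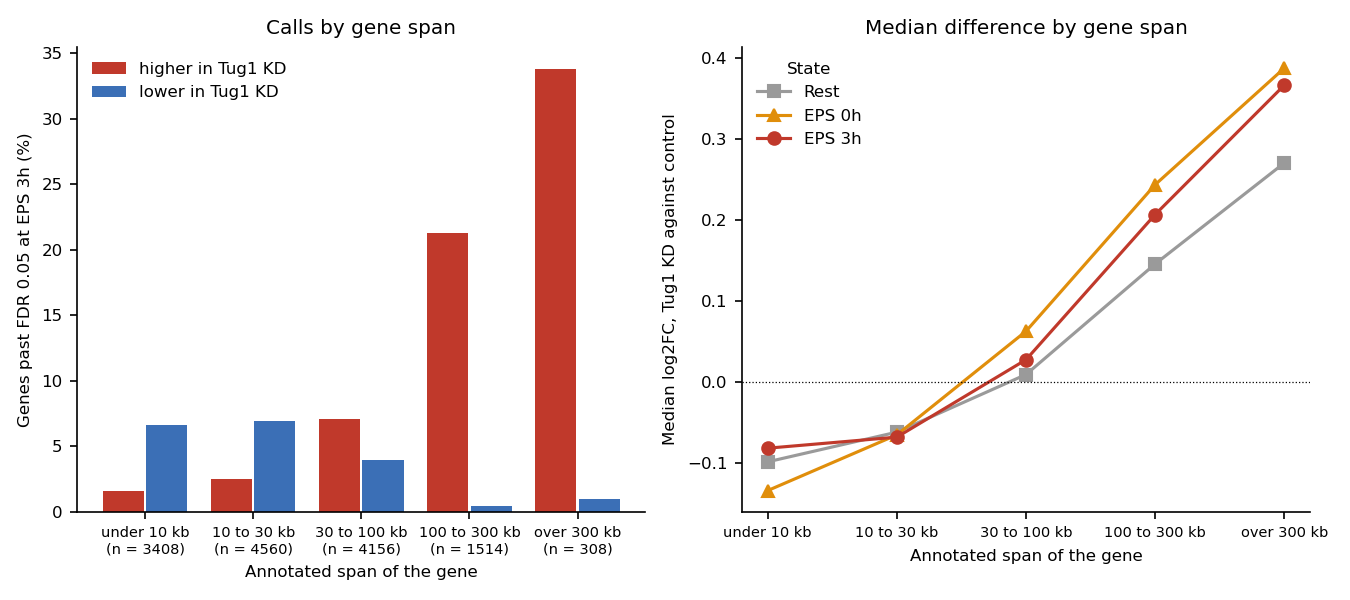
Left, percent of the genes in each bin of annotated span that were higher (red) or lower (blue) in *Tug1* KD at EPS 3h (FDR under 0.05), with the number of genes tested in each bin. Right, median log2FC of *Tug1* KD against control in the same bins at Rest, EPS 0h and EPS 3h. The share of higher genes goes from 1.58% under 10 kb to 33.8% over 300 kb.

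Genes of excitation-contraction coupling were led by the voltage-sensing channel. Of 27 genes tested, 9 were higher, where 6.38% of all genes were, and 3 lower, where 5.11% were (11 and 4 with the block, against 11.5% and 9.26%), with a median log2FC of 0.13 against -0.01 for all genes. The higher ones span 61.8 to 586 kb and the lower ones 7.16 to 18.4 kb. The voltage sensor *Cacna1s* (chr1:135980259-136047560) went from 63.6, 79.2 and 125 RPM (lowest, median, highest) in control to 166, 212 and 274 RPM in *Tug1* KD libraries, a log2FC of 1.29 (SE 0.21, FDR 3.27e-05). Its auxiliary subunit *Cacna2d1* (chr5:16139372-16579509) went from 54.6, 79.1 and 105 RPM to 126, 192 and 298 RPM (log2FC 1.37, FDR 2.29e-05). For both channel genes every *Tug1* KD library was above every control library. The ryanodine receptors *Ryr1* (0.79, FDR 0.00648) and *Ryr3* (1.42, FDR 0.00935) and sarcalumenin, *Srl* (0.51, FDR 0.000776), a calcium-binding protein of the reticulum, were higher. Among 3 genes of the same machinery that were lower, the directions were shared by all 6 replicate numbers. The calcium pump *Atp2a1* went from a mean of 540 ± 68.4 to 399 ± 50.1 RPM (log2FC -0.43, FDR 0.00344). The calcium store protein *Casq1* had a log2FC of -0.42 (FDR 0.00104). The channel adaptor *Stac3* had one of -0.43 (FDR 0.0496), a call that was lost when any replicate number was left out (FDR up to 0.159 over the alternatives). The *Stac3* call was also lost with limma-voom as the test.

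At the mitochondrial calcium uniporter, the pore gene was higher. *Mcu* (chr10:59282806-59452522) had levels of 61.8, 69.4 and 79.0 RPM in control and 93.5, 118 and 124 RPM in *Tug1* KD libraries, with no overlap (log2FC 0.70, SE 0.13, FDR 0.000211). *Mcur1*, a regulator of the uniporter, went from 40.1, 44.2 and 47.9 RPM to 31.3, 32.8 and 35.6 RPM, also with no overlap (log2FC -0.42, FDR 0.000174). The gatekeeper subunit *Micu2* had a log2FC of 0.23 (FDR 0.195). Its FDR was 0.0732 with the block in the EPS 3h libraries alone and 0.0305 with the block in all groups. Of 12 genes of the uniporter and its exchangers, 2 were higher and 1 lower, or 2 and 4 with the block (11.5% and 9.26% of all genes), and the median log2FC was -0.08.

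Of 52 sarcomere genes tested, 6 were higher and 2 lower (13 and 4 with the block), where 6.38% and 5.11% of all genes were (11.5% and 9.26% with the block), so that the lower side was near the share of all genes. The median log2FC was 0.08, with -0.03 from replicates 1 to 3 alone against 0.19 from replicates 4 to 6 alone. The higher ones span 55.9 to 242 kb and the lower ones 17.3 and 23.4 kb. All 3 myomesin genes, whose products cross-link thick filaments at the M-band, were higher with separate groups. *Myom1* (chr17:71309628-71434802) went from 58.0, 69.0 and 86.2 RPM to 165, 170 and 193 RPM (log2FC 1.29, SE 0.14, FDR 2.08e-08). *Myom2* had a log2FC of 0.78 (FDR 2.99e-07) and *Myom3* one of 0.61 (FDR 0.00116). The giant sarcomere gene *Neb* (1.02, FDR 0.0251) was also higher. *Mybpc2* (chr7:44150793-44174153), the fast isoform of myosin-binding protein C, fell from 94.0, 119 and 149 RPM to 54.0, 59.4 and 69.1 RPM with no overlap (mean 121 ± 18.2 against 60.6 ± 6.76 RPM, FDR 7.28e-10). The fast alpha-actinin *Actn3* had a log2FC of -0.36 (FDR 0.0419), a call that was lost when replicate 1, 2, 3, 4 or 5 was left out (FDR up to 0.294 over the alternatives). None of the 8 sarcomeric myosin heavy chain genes tested passed the threshold without the block. With it, 2 were higher and 2 lower, the latter being *Myh8* (-0.46, FDR 0.250 unblocked and 0.000241 blocked) and *Myh4* (-0.36, 0.366 and 0.00174).

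In the complex that holds dystrophin at the membrane, 5 of 20 genes were higher, where 6.38% of all genes were, and 1 was lower, which is near the 5.11% of all genes. With the block 8 were higher and 1 lower (11.5% and 9.26% of all genes), and the median log2FC was 0.09. Of the 20 genes, 9 span over 100 kb. Of all genes tested, 21.3% of those from 100 to 300 kb and 33.8% of those over 300 kb were higher. The part of gene span in the counts of this list was not tested. *Dmd* was among its 5 higher genes. *Utrn*, the paralogue of dystrophin that is known to replace it in part, went from 211, 231 and 352 RPM in control to 350, 427 and 555 RPM in *Tug1* KD libraries (log2FC 0.83, FDR 0.00104), and 1 control library (replicate 1) reached into the *Tug1* KD range. *Sgcd* had a log2FC of 0.94 (FDR 0.00331). The tetraspanin-like *Sspn* had one of -0.27 (FDR 0.0301), lost without replicate 1, 2, 4 or 5. Of 21 myoblast fusion genes, 3 were higher and 0 lower, where 6.38% and 5.11% of all genes were. With the block 7 were higher and 0 lower (11.5% and 9.26% of all genes), and the median was 0.13. Of the 21 genes, 10 span over 100 kb, and the part of gene span was not tested here either. The higher genes included the membrane repair gene *Dysf* (log2FC 1.12, SE 0.12, FDR 6.81e-08), at 98.8 to 137 RPM in *Tug1* KD against 45.5 to 66.3 RPM in control libraries. The adhesion gene *Ncam1* (0.79, FDR 2.38e-06) was also higher. *Dysf* and *Ncam1* span 203 and 297 kb.

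Of 24 myogenic regulatory factors, their *Mef2* partners and related cofactors, 3 were higher and 1, *Myf6*, was lower, or 4 and 2 with the block (6.38% and 5.11% of all genes, or 11.5% and 9.26%). The lower side was thus near the share of all genes. *Vgll4*, a cofactor of TEAD factors, went from 86.6, 97.3 and 109 RPM to 149, 160 and 214 RPM (log2FC 0.79, SE 0.09, FDR 1.84e-07). *Mef2c* had a log2FC of 0.89 (SE 0.22, FDR 0.00513) with overlapping groups, and *Mef2d* one of 0.36 (FDR 0.00197) with separate groups, the latter at an FDR of 0.0557 when no filter was applied. *Myod1* had a log2FC of -0.17 (FDR 0.239) and *Myog*, which marks early differentiation, one of 0.00 (FDR 0.990), at means of 835 ± 151 and 832 ± 116 RPM.

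Subunits of the respiratory chain held no calls in a comparison where 11.5% of all genes were called. Of 36 nuclear subunits of complex I, 28 of complexes II to IV, 16 of complex V and 10 subunits encoded in mitochondrial DNA, 0 were called with edgeR. Their median log2FCs were 0.00, 0.00, -0.02 and 0.09, but these join opposite signs. In replicates 1 to 3 alone the medians were -0.11, -0.12, -0.12 and 0.15, and in replicates 4 to 6 alone 0.17, 0.11, 0.07 and -0.23. With the block, 2 of complex I and 1 of complex V were higher and 1 of complexes II to IV was lower. The last was *Cox7a1*, the muscle isoform of a complex IV subunit, at 2.49 to 6.82 RPM in control and 1.63 to 4.25 RPM in *Tug1* KD libraries (log2FC -0.79, FDR 0.0876 unblocked and 0.00170 blocked). Nuclear regulators were called in 3 of 18 cases, 2 higher and 1 lower, where 6.38% and 5.11% of all genes were. With the block 3 were higher and 3 lower, against 11.5% and 9.26% of all genes. The nuclear receptor gene *Esrrg* was low but higher in *Tug1* KD, at 0.869 to 2.64 RPM against 0.343 to 1.22 RPM in control (log2FC 1.12, FDR 0.0317, lost without replicate 2, 3, 4 or 5). *Pparg* had a log2FC of -0.35 (FDR 0.0381), lost when any replicate number was left out. *Esrrb* had one of 0.78 (FDR 0.0592, and 0.0321 with the block). Values for *Nrf1* (-0.03, FDR 0.898), *Gabpa* (-0.11, FDR 0.613) and *Tfam* (-0.14, FDR 0.325), factors that drive or maintain mitochondrial gene expression, did not pass. Of 18 genes of mitochondrial DNA transcription and replication, 1 was higher and 1 lower, which is near the shares of all genes. The lower one was the mitochondrial RNA polymerase *Polrmt* (-0.32, FDR 0.0137, lost without replicate 3, 4 or 5). Among 16 genes of mitochondrial fusion and fission, 3 were higher and 0 lower. With the block 4 were higher and 2 lower, where 11.5% and 9.26% of all genes were. The 3 called without the block were the fission gene *Mtfp1* (0.89, FDR 0.00235) and the lipid transfer genes *Vps13d* (0.70, FDR 0.00197) and *Vps13c* (0.50, FDR 0.0499). *Vps13c* lost its call without replicate 1, 2, 3, 4 or 5. Its call was also lost with limma-voom, with library size only and with upper quartile factors (FDR up to 0.229 over the alternatives).

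**Figure D4:**
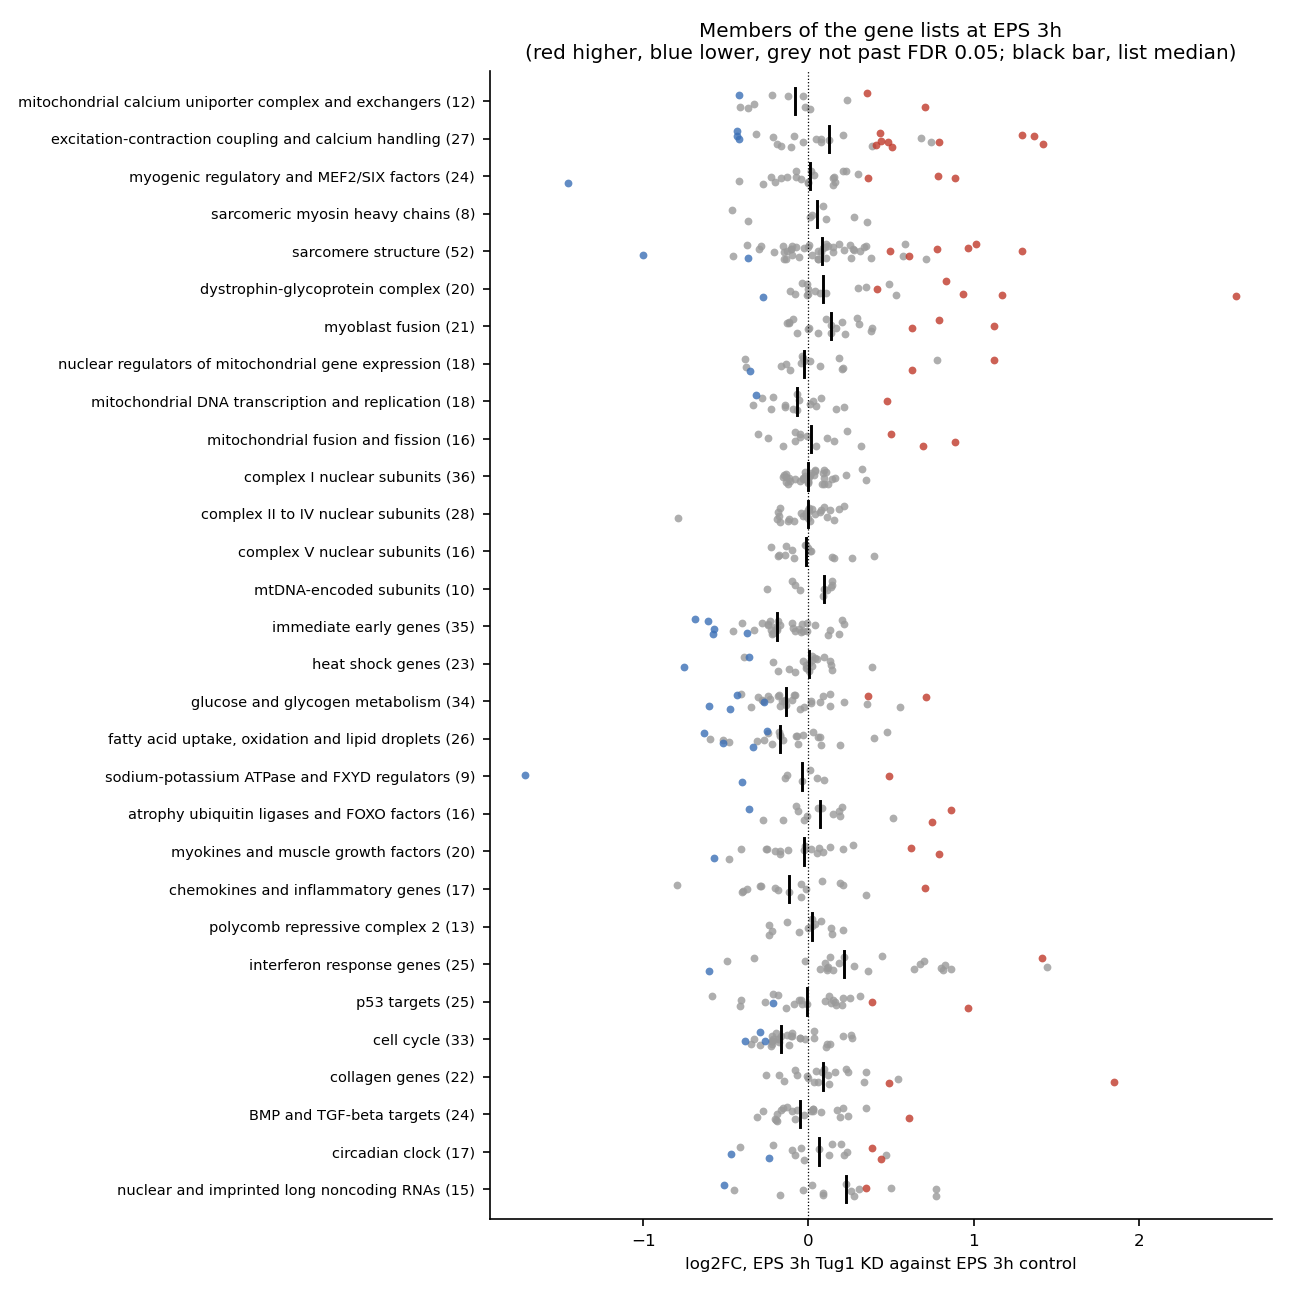
Each point is a tested member of 1 of 30 gene lists, at its log2FC of *Tug1* KD against control at EPS 3h, with the number tested beside the name of the list. Points are jittered vertically, red is higher, blue is lower, grey is not past an FDR of 0.05, and the black bar is the median of the list. Excitation-contraction coupling holds 9 red and 3 blue points, and immediate early genes hold 5 blue and 0 red points.

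Of 35 immediate early genes tested, 5 were lower and 0 higher, where 5.11% of all genes were lower. With the block 8 were lower and 0 higher, where 9.26% of all genes were lower. Of the 35, 29 had a negative log2FC, with a median of -0.19 against -0.01 for all genes. Since 0 of them span over 100 kb, the list holds only shorter genes, and the part of gene span in this shift was not tested. The 5 called genes span 2.78 to 20.7 kb. The orphan nuclear receptor *Nr4a1* went from 142, 181 and 195 RPM in control to 91.9, 112 and 152 RPM in *Tug1* KD libraries (log2FC -0.57, SE 0.15, FDR 0.00917). The phosphatase gene *Dusp5* (-0.58, FDR 0.00589) and the factor *Klf2* (-0.69, FDR 0.00674) were lower too. *Klf2* was not a gene that rose with stimulation here: its mean in control libraries was 38.9 RPM at Rest and 10.4 RPM at EPS 3h. The calls of *Nr4a1* and *Klf2* were lost without replicate 4 and that of *Dusp5* without replicate 3, with highest FDRs over the alternatives of 0.0733, 0.298 and 0.224. *Maff* had a log2FC of -0.22 (FDR 0.306). Of 23 heat shock genes, 2 were lower and 0 higher (3 and 1 with the block), near the shares of all genes, with a median of 0.00. *Hspb7*, a small heat shock protein of muscle, went from 114, 166 and 179 RPM to 76.1, 92.3 and 99.9 RPM with no overlap (log2FC -0.75, SE 0.09, FDR 5.23e-07), and *Hspa2* had a log2FC of -0.36 (FDR 0.00386).

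In fuel metabolism, *Acadm* was the gene most clearly lower by FDR. Of 26 genes of fatty acid uptake, oxidation and lipid droplets, 4 were lower and 0 higher, where 5.11% and 6.38% of all genes were (8 and 1 with the block, against 9.26% and 11.5%), with a median log2FC of -0.17. *Acadm*, which encodes the medium-chain acyl-CoA dehydrogenase, went from 92.6, 96.6 and 113 RPM to 58.0, 62.3 and 73.4 RPM with no overlap (log2FC -0.63, SE 0.07, FDR 1.21e-07). The uncoupling protein gene *Ucp2* (-0.52, FDR 0.00235) also had separate groups. The carnitine transferase gene *Cpt2* (-0.34, FDR 0.0107) lost its call without replicate 2 or 4. Of 34 genes of glucose and glycogen metabolism, 4 were lower and 2 higher (9 and 3 with the block, against 9.26% and 11.5% of all genes), with a median of -0.14. The higher side was near the share of all genes. The glycolytic genes *Pgam2* (-0.60, FDR 0.00318) and *Tpi1* (-0.48, FDR 0.0130) were lower, as was glycogen synthase *Gys1* (-0.27, FDR 0.0212). *Ppp1r3c*, which directs protein phosphatase 1 to glycogen, was higher (0.71, SE 0.18, FDR 0.00760), as was the glycogen primer *Gyg* (0.36, FDR 0.0402). Calls were lost without replicate 2 or 4 for *Tpi1*, without 3, 4 or 5 for *Gys1*, and without 1, 3, 4 or 5 for *Gyg*. With the EPS 3h libraries compared alone without a block, *Ppp1r3c*, *Gys1*, *Gyg* and *Cpt2* lost their calls. The *Ppp1r3c* call was also lost in replicates 4 to 6 alone (FDR up to 0.138 over the alternatives). Of 9 sodium-potassium pump subunits and regulators, 2 were lower, *Atp1b2* among them, and 1 was higher, where 5.11% and 6.38% of all genes were. The counts were the same with the block, against 9.26% and 11.5% of all genes. The higher one was the regulator *Fxyd6* (0.49, FDR 0.0107, lost without replicate 1 or 5).

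Among secreted factors and degradation genes, 2 of 20 myokines and growth factors were higher and 1 lower, with and without the block, which is near the shares of all genes. The myostatin relative *Gdf11* went from 11.0, 12.7 and 20.1 RPM to 20.9, 24.6 and 26.5 RPM (log2FC 0.79, FDR 0.000471), and *Fstl3*, which binds such ligands, had a log2FC of 0.62 (FDR 7.98e-05). *Fgf21*, a stress-induced hormone gene, had one of -0.57 (FDR 0.0322, lost without replicate 1, 2, 3 or 6). Of 16 atrophy ligases and FOXO factors, 2 were higher and 1 lower, where 6.38% and 5.11% of all genes were. With the block 3 were higher and 2 lower, against 11.5% and 9.26% of all genes. The 2 higher without the block were *Trim55* (0.86, FDR 0.00131), a ligase bound to the sarcomere, and *Fbxo40* (0.75, FDR 0.00833).

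Further lists held few calls without the block, mostly near the 6.38% higher and 5.11% lower of all genes. With the block these shares were 11.5% and 9.26%, and several lists lay above them. Among those were interferon response genes (8 of 25 higher) and chemokine and inflammatory genes (6 of 17 lower). Nuclear and imprinted long noncoding RNAs (5 of 15 higher) were another such list. Of 25 interferon response genes, 1 was higher and 1 lower, although 21 of 25 had a positive log2FC and the median was 0.21. *Mx2*, an antiviral GTPase, went from 13.0, 24.2 and 42.1 RPM to 38.6, 67.5 and 118 RPM (log2FC 1.41, SE 0.30, FDR 0.00104). With the block 8 were higher and 2 lower, the largest value being that of *Oas2* (1.44, FDR 0.183 unblocked and 0.00422 blocked). Of 25 p53 targets, 2 were higher and 1 lower (3 and 4 with the block). *Sesn1*, a stress-induced regulator of growth signalling, went from 44.0, 54.1 and 70.3 RPM to 82.9, 109 and 151 RPM with no overlap (log2FC 0.96, SE 0.15, FDR 2.43e-05). Of 33 cell cycle genes, 3 were lower and 0 higher, with and without the block, where 5.11% of all genes were lower without it and 9.26% with it. The median was -0.17. They were *Tpx2*, *Ccnb1* and *Mcm6* (log2FC -0.30, -0.39 and -0.27), and the calls were lost without replicate 2 or 4 for *Tpx2*, without any 1 replicate number for *Ccnb1*, and without any 1 but replicate 1 for *Mcm6*. The *Ccnb1* call was also lost with limma-voom. Of 17 clock genes, 2 were higher and 2 lower (3 and 4 with the block). The repressor *Nr1d1* was higher with separate groups (0.44, FDR 0.00284) and *Per1* was lower (-0.47, FDR 0.0126, lost without replicate 3). Of 22 collagen genes, 2 were higher (4 with the block), including *Col25a1* (1.85, FDR 0.0159, lost without replicate 2), which is needed for nerve to reach muscle. Of 17 chemokine and inflammatory genes, the deubiquitinase gene *Cyld* was higher (0.70, FDR 0.00125), and with the block 1 was higher and 6 were lower. Of 24 BMP and TGF-beta targets, *Ltbp1* was higher (0.61, FDR 5.96e-05). Of 13 polycomb genes 0 were called, and 2 were lower with the block. Of 15 nuclear and imprinted long noncoding RNAs, *Tug1* was lower and *Norad* was higher (0.35, FDR 0.0223, lost without replicate 2, 3, 4 or 5), with 5 higher and 2 lower with the block.

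The question that recovery adds is whether the *Tug1* KD difference at EPS 3h was another than before or directly after stimulation. No library is shared between the 3 states. At Rest 776 genes were higher (5.54%) and 625 lower (4.47%), and at EPS 0h 1155 (8.25%) and 850 (6.07%). Of the genes higher at EPS 3h, 64.2% were also higher at Rest and 84.5% at EPS 0h, which is 73.8% of the Rest list and 65.4% of the EPS 0h list. For lower genes the shares of the EPS 3h list were 49.0% and 69.5%, and those of the other lists 56.0% and 58.5%. No gene was called in opposite directions, and 544 genes were higher and 316 lower in all 3 states. A further 109 higher and 184 lower genes were called at EPS 3h and in neither other state, and 0 of these passed a test of the difference.

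Tests of that difference called 1 gene. Against Rest, it had a more positive *Tug1* KD log2FC at EPS 3h, and 0 genes had a more negative one (0.00715% of genes tested), with 290 and 140 at an unadjusted p under 0.05. DESeq2 and limma-voom also gave 1 and 0. With the replicate block the counts were 6 and 2, which depend on that choice. At Rest, libraries of the same number correlated at -0.189 to 0.762. Only for numbers 5 and 6 was each Rest library the other's closest match. Against EPS 0h, 0 genes differed (0.0%) with edgeR, DESeq2 and limma-voom, and 86 and 51 were at an unadjusted p under 0.05. The largest differences from Rest among the genes named above are given as values that did not pass. *Esrrb* had a log2FC of 2.39 at Rest and 0.78 at EPS 3h (difference -1.61, FDR 0.683). *Mx2* had 0.36 and 1.41 (1.05, FDR 1.00), *Ppp1r3c* -0.19 and 0.71 (0.90, FDR 0.683), *Sesn1* 0.27 and 0.96 (0.69, FDR 0.794), and *Depp1* -0.30 and -1.10 (-0.81, FDR 0.974). For *Mx2*, *Ppp1r3c* and *Sesn1* the EPS 0h values (1.43, 0.54 and 1.03) were close to those of EPS 3h.

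The gene that did differ was *Fut2*, a fucosyltransferase that adds fucose to glycans of the cell surface. It was chosen after its values were seen, since its level is below the 5 RPM asked of named genes. At Rest it was at 1.51, 1.82 and 2.72 RPM in control and 0.322, 0.644 and 0.813 RPM in *Tug1* KD libraries, which held 6 to 18 counts each. At EPS 3h it was at 1.54, 2.53 and 4.10 RPM in control and 2.63, 3.29 and 4.16 RPM in *Tug1* KD libraries. The groups were separate at Rest and overlapped at EPS 3h. The log2FC was -1.72 at Rest, -0.36 at EPS 0h and 0.37 at EPS 3h, and the difference between EPS 3h and Rest was 2.09 (SE 0.32, FDR 0.00204). Without replicate 2, 3 or 4 the FDR of the difference was 0.0595, 0.0694 and 0.0697, with differences of 2.01, 1.91 and 2.04. In replicates 1 to 3 alone the difference was 2.29 (FDR 0.297), and in replicates 4 to 6 alone 1.87 (FDR 0.573). The 1 gene with a more positive difference past the threshold in replicates 4 to 6 alone was thus not *Fut2*.

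**Figure D5:**
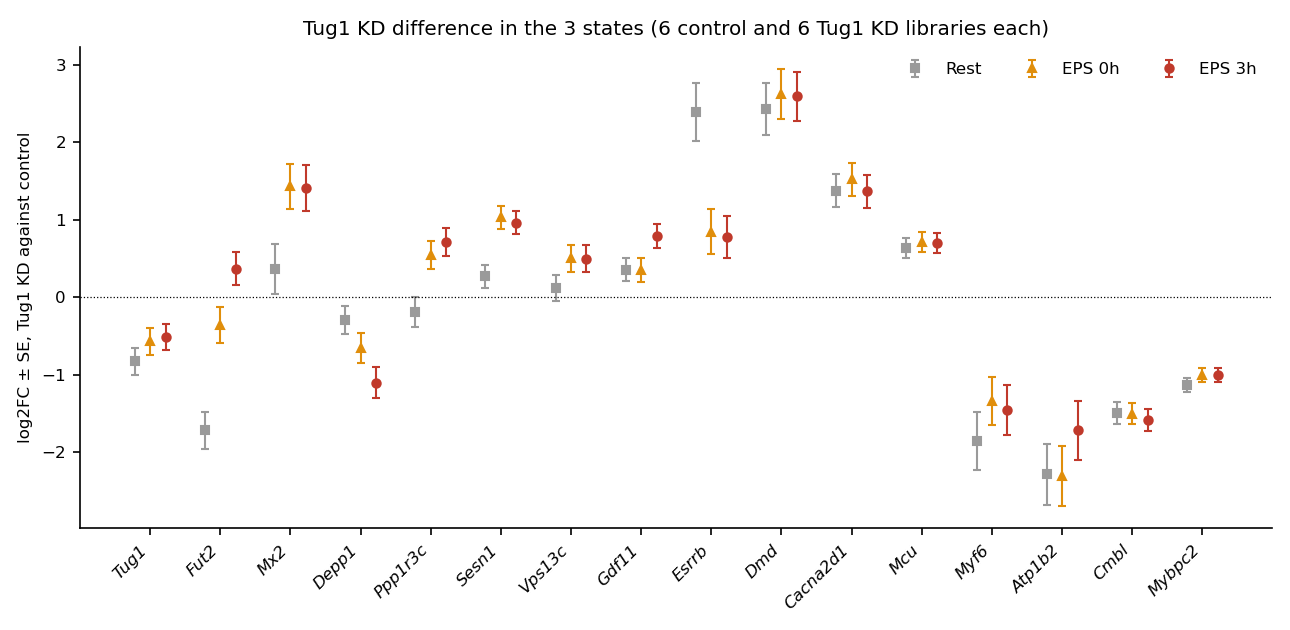
Log2FC of *Tug1* KD against control, with its SE, for 16 genes at Rest (grey squares), EPS 0h (orange triangles) and EPS 3h (red circles), from 6 control and 6 *Tug1* KD libraries in each state. *Fut2* goes from -1.72 at Rest to 0.37 at EPS 3h, and *Dmd*, *Mcu*, *Cmbl* and *Mybpc2* keep their direction in all 3 states.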

How the data were processed

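RNA of 36 C2C12 libraries was sequenced after poly-A selection with a stranded kit. Per the labels, the authors trimmed reads with fastp 0.14.1, aligned them with STAR 2.5 to GRCm39 and deposited unnormalized whole-number counts for 55416 genes. Whether counting used strand is not given in the sources used here, so a gene and an antisense partner may share reads. Genes without a name (1492) hold 0.0327% of counts.

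The 13995 genes that reached 1 RPM in 12 or more of the 36 libraries were tested with the quasi-likelihood test of edgeR 4.0.16 (TMM, robust, R 4.3.3), fitted to all 6 groups without a block, with an FDR under 0.05. The SE is the log2FC divided by the square root of F. limma 3.58.1 and DESeq2 1.42.0 were alternatives. Differences per replicate number used log2(RPM + 0.5). Spans and coordinates are GENCODE annotation on GRCm39 (13946 genes matched).

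Deviations from group means of same-numbered control and *Tug1* KD libraries correlated in every pair at EPS 3h (0.266 to 0.800), so numbers were taken as pairs there, and at EPS 0h (0.748 to 0.847), but not at Rest (-0.189 to 0.762). At EPS 3h, however, control libraries 1, 2 and 4 correlated best with *Tug1* KD libraries 2, 1 and 5. The numbers may therefore not be true pairs there. By the study's methods the 6 libraries of a group are wells, 3 from each of 2 experiments. The labels do not say which replicates share one, so p-values measure the spread between these libraries, which may be partly technical.

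Genes named were a fixed set, the 8 largest rises and falls past the threshold (groups separate, and a mean no lower than 5 RPM in the group with more) and up to 3 called members of each list in each direction. *Cd68*, *Fut2*, *Myh4*, *Myh8*, *Neb*, *Oas2*, *Ryr1*, *Ryr3* and *Sgcd* were named after their values were seen. Some items that the rule names are not reported here. Members and lists were chosen with earlier results of these data known. RefSeq promoters matched 10498 genes tested, under the 80% required, so a search for motifs was void.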

Additional observations from a re-analysis of the deposited data

Results flagged for a closer look

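In 194 groups of 6 libraries (97 named genes, control and *Tug1* KD at EPS 3h), 10 held a library far from the other 5, which is near the 1 in 20 that such a rule flags by chance. High in control replicate 3 were *Myom2* (722.0 RPM, next highest 582.0), *Pgam2* (121.2, next 89.4), *Maff* (215.3, next 159.4) and *Myog* (1136, next 829.2). *Myog* was also high in *Tug1* KD replicate 3 (1058 RPM, next 851.3). High in control replicate 1 were *Utrn* (352.3 RPM, next 240.6) and *Vps13d* (120.0, next 87.2), and in control replicate 2 *Acadm* (112.7, next 99.95). Low in their group were *Casq1* in *Tug1* KD replicate 2 (87.9 RPM, next lowest 102.9) and *Mef2d* in *Tug1* KD replicate 3 (172.8, next 186.7). *Fut2* stood out because its *Tug1* KD log2FC differed between EPS 3h and Rest by 2.09, by the test of the difference itself.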

How the results depend on the processing

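Of 97 named genes, 87 passed the threshold, all 87 kept their direction under the 18 alternatives and 43 passed under all of them. Lost calls are not given above for every gene. For example, *Mcur1*, *Atp2a1*, *Ucp2*, *Gdf11* and *Hspa2* lost theirs in replicates 1 to 3 alone, *Hspa2* also with the groups compared alone. *Casq1* and *Mtfp1* lost theirs in replicates 4 to 6 alone. Over 1746 values, 1506 kept direction and side of the threshold, 227 lost and 13 gained a call, and 0 reversed. Counts of higher and lower genes moved by over 1.5 times with the groups compared alone (503 and 328), with no filter on low counts (506 and 419), with the replicate block (1514 and 1364, or 1615 and 1296 with the EPS 3h libraries alone) and, chosen after seeing the data, with the replicate set (1 to 3 or 4 to 6) as a term (1376 and 1235) or replicates 1 to 3 alone (537 and 315). Leaving out a replicate number gave 556 to 803 higher and 422 to 611 lower. Both counts also moved by over 1.5 times without replicate 2 (556 and 459) and without replicate 4 (568 and 422). So did the count of lower genes without replicate 5 (461). DESeq2, limma-voom, library size, upper quartile factors and a count filter stayed within 1.5 times. Genes with a more positive difference from Rest numbered 6 with the replicate block, 0 in replicates 1 to 3 alone and 0 to 1 without a replicate. More negative ones numbered 2 with the replicate block (all groups, or the groups compared alone) and 1 in replicates 1 to 3 alone, and 0 when any 1 replicate number was left out. *Tug1* lost its call with the groups compared alone (-0.52), in replicates 1 to 3 alone (-0.50) and without 5 of the 6 replicates (range -0.60 to -0.43). The causes were not tested. Depth limits genes near 1 RPM, about 20 counts a library, such as *Esrrg* and *Fut2*.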
